A study of Mus musculus with 4 samples.

Results

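The genes followed here mark neural crest cells and Schwann cell precursors. They are *Sox10*, *Foxd3*, *Tfap2a*, *Tfap2b*, *Erbb3*, *Ets1*, *Ngfr*, *Sox8* and *Ednrb*, and they were measured by RNA-seq of mouse larynx at E10.5 (32 to 35 somites). They were taken by name from the 46983 genes of the deposited tables, and all 9 were found and passed the filter on low values (a mean of at least 1 TPM, a transcript abundance scaled for gene length and library size, over the libraries), as did 16972 genes in all. The libraries were 2 pools of *Shh*-/- larynxes and 2 pools of wild-type (WT) larynxes, each made from 3 dissected larynxes of the vocal fold region. The mutants carry the *Shhtm1amc* null allele on a Swiss Webster background, and the WT embryos are Swiss Webster. The sample labels write the mutant genotype as Shh+/-, while the series design and the methods give *Shh*-/-, which is used here. Each library averages 3 embryos, so that differences between single embryos are not seen, and in RNA from whole tissue a change in the number of cells of a type and a change in the RNA per cell cannot be told apart. The sources used here do not say whether the pools came from separate litters. The p-values set a difference against the spread between these pools, which was estimated in part from all tested genes.

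Neural crest cells leave the dorsal neural tube, migrate into the pharyngeal arches and along the foregut, and form connective tissue, neurons, pigment cells and glia. TFAP2 and FOXD3 act early in specifying the crest, and SOX10, with the related SOXE factors SOX8 and SOX9, maintains migrating crest and is later kept in glia and pigment cells. Schwann cell precursors are the crest-derived glia that travel along nerves. They depend on neuregulin signals received by ERBB3 with its partner ERBB2, and migrating crest also carries the endothelin receptor EDNRB and the neurotrophin receptor NGFR. Hedgehog (HH) signals from the foregut epithelium act on the mesenchyme through which these cells pass. Several of the genes are also used elsewhere, *Ets1* and *Ednrb* in endothelium and *Tfap2a* in surface ectoderm, so that none of them is read here as a count of crest cells.

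The sequence before the start site is shown for *Ngfr*, the only one of the 9 genes that passed the test, for *Foxd3*, whose direction turned when the values were corrected for GC content, and for *Ednrb*, the gene with the lowest transcript GC content. RefSeq (GRCm38.p6, the build of the mm10 coordinates in the tables) gave windows for 6 of the 9 genes. Each sequence is the 250 bases before the RefSeq start site, 5′ to 3′ on the gene's own strand. Capitals mark a match to GCCNNNGGC, a site read by AP-2 factors. The windows lie at chr11:95587699-95587948 (minus strand, *Ngfr*), chr4:99656049-99656298 (plus strand, *Foxd3*) and chr14:103843702-103843951 (minus strand, *Ednrb*). By the deposited gene coordinates, given below, the *Ednrb* window lies wholly inside the gene, and the *Ngfr* window runs a short way into it.
Ngfr: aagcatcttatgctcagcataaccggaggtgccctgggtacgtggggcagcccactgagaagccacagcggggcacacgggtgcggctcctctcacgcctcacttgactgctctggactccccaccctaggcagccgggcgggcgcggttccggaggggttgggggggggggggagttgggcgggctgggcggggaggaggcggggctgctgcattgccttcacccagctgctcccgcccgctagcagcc
Foxd3: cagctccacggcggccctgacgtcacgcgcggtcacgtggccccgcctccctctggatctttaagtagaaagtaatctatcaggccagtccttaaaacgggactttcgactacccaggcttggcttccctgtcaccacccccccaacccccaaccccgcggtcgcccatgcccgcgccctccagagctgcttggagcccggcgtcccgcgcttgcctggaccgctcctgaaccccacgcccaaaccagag
Ednrb: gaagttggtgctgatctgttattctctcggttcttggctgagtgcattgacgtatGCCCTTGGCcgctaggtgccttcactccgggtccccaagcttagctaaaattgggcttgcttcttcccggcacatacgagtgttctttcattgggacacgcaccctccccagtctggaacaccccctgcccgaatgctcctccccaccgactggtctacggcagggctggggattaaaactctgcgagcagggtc
The *Ngfr* window had a GC content of 70.4% and 16 CpG dinucleotides, that of *Foxd3* 65.6% and 21 CpG, and that of *Ednrb* 56.8% and 11 CpG, against medians of 52.4% and 6 CpG over 32851 RefSeq windows of the same length. On both strands, 1 of the 7 windows of these genes (*Tfap2a* has a second start site) held GCCNNNGGC, that of *Ednrb*, while 13.7% of all windows held it. None of the 7 held the SOX motifs ACAAAG or ACAATG (16.5% and 10.7% of all windows), the ETS motif CCGGAAG (6.91%) or the GLI motif GACCACCCA (0.225%). A match is a description of these letters and not a bound site.

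The libraries held 1.37 and 3.13 Gb (gigabases aligned) for *Shh*-/- and 2.85 and 2.97 Gb for WT, derived from the ratio of coverage to FPKM, and *Shh*-/- pool 1 had the smallest depth. Since TPM keeps no read counts, the precision of a value here rests on the spread between pools. *Shh* itself was at 10.4 and 10.8 TPM in *Shh*-/- against 23.7 and 42.1 TPM in WT. The HH target *Ptch1* measured 12.9 and 13.8 TPM against 57.8 and 55.1 TPM, so both genes separated the 2 groups. Whether these levels tell *Shh*-/- from Shh+/- was not tested. Differences are given as *Shh*-/- minus WT on the log2(TPM + 1) scale, on which the change of a gene with low TPM comes out too small. They were tested with limma, a linear model that shares its estimate of the spread over all 16972 genes, with Benjamini-Hochberg adjustment over all of them. With 2 pools a group the smallest p of an exact permutation test is 0.33, so none was run. The median difference of all tested genes was 0.08, and centring each library on its median moved it to -0.05.

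**Figure D1:**
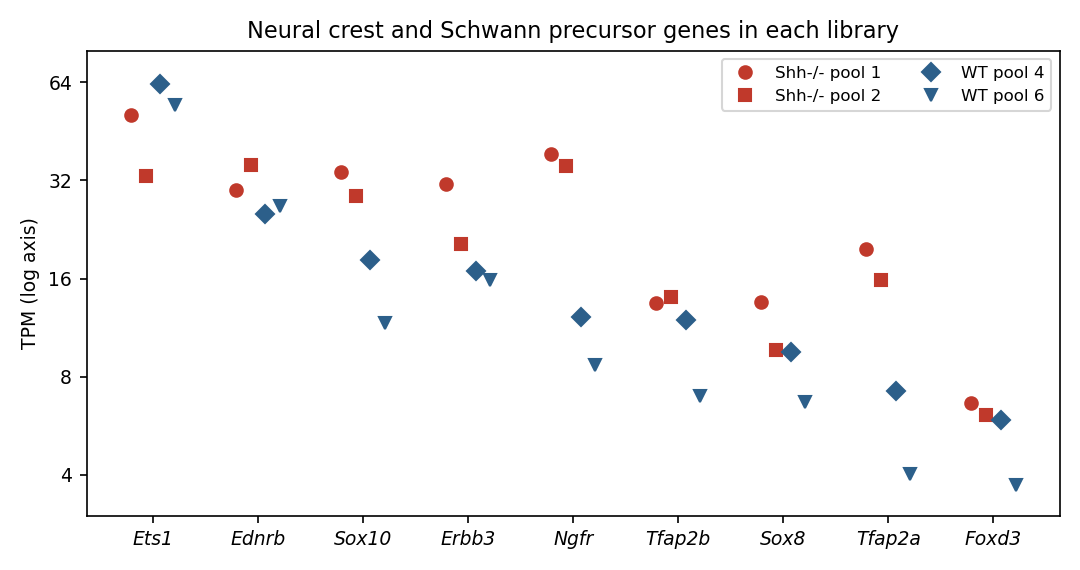
TPM of the 9 genes (log axis) in each of the 4 libraries, with red symbols for the *Shh*-/- pools and blue symbols for the WT pools, and genes ordered by their level in WT pool 4. Both red symbols lie above both blue ones for 8 genes and below them for *Ets1*, by a wide margin for *Ngfr* and *Tfap2a* and by a narrow one for *Sox8* and *Foxd3*, and the 8 (38% of all tested genes) become 5 after median centring (27.3%) and 4 after quantile normalization (30%).

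Of the 9 genes, *Ngfr* alone rose in *Shh*-/- by limma (adjusted p under 0.05), where 0.56% of all tested genes were called higher and 0.165% called lower. An unadjusted p under 0.05 was reached by *Ngfr*, *Tfap2a*, *Sox10* and *Erbb3*, all of them higher in *Shh*-/-, against 17.5% of all tested genes in that direction and 7.22% in the other. For 8 genes both *Shh*-/- pools lay above both WT pools, an order that 38% of all tested genes showed, and for *Ets1* both lay below, as for 22.7% of tested genes. The median difference of the 9 genes was 0.53 on the log2 scale, against 0.08 for all tested genes. Only part of this order held under other scalings. After median centring, *Foxd3*, *Sox8* and *Ednrb* overlapped between the genotypes and 5 genes kept both *Shh*-/- pools on top, as did 27.3% of all tested genes. After quantile normalization *Tfap2b* overlapped as well and 4 did, beside 30% of all tested genes.

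*Sox10*, the transcription factor that maintains migrating crest and its glia, lies on chromosome 15 from 79154913 to 79164490. Its level was 34.0 and 28.6 TPM in *Shh*-/- against 18.2 and 11.7 TPM in WT. The genotypes did not overlap, although the WT pools differed from each other by 0.60 on the log2 scale. The difference between genotypes was 1.05 (SE 0.24, 95% interval 0.43 to 1.66, limma adjusted p = 0.109).

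*Sox8*, a SOXE relative of *Sox10* on chromosome 17 (25565892 to 25570686), measured 13.6 and 9.67 TPM in *Shh*-/- and 9.52 and 6.69 TPM in WT. The lower *Shh*-/- pool and the higher WT pool were nearly level, and the difference of 0.47 (SE 0.25, limma adjusted p = 0.299) was close to the spread of 0.45 between either pair of pools. It was 0.24 without WT pool 6 and 0.25 without *Shh*-/- pool 1. *Sox9*, the third SOXE gene, which is also used in cartilage precursors, measured 26.5 and 25.5 TPM in *Shh*-/- and 28.6 and 23.0 TPM in WT, so its genotypes overlapped (difference 0.02, SE 0.15, limma adjusted p = 0.949). A ratio within a library is not altered by a single scaling factor for that library, though it can be by quantile normalization or the correction for GC content. The ratio of *Sox10* to *Sox9* was 1.29 and 1.12 in *Shh*-/- against 0.637 and 0.507 in WT, and that of *Sox10* to *Sox8* was 2.51 and 2.96 against 1.91 and 1.74. Both ratios were higher in both *Shh*-/- pools. With 2 pools a group these ratios, and those below, were not tested.

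*Tfap2a*, an AP-2 factor of early crest and surface ectoderm (chromosome 13, 40715675 to 40733823), measured 19.8 and 15.8 TPM in *Shh*-/- and 7.23 and 4.02 TPM in WT. The lower *Shh*-/- pool stood 1.03 above the higher WT pool on the log2 scale. The difference between genotypes was 1.54 (SE 0.28, 95% interval 0.80 to 2.27, limma adjusted p = 0.0887), a ratio of means of 3.16. *Tfap2b*, a second AP-2 factor with a later role in crest-derived tissue (chromosome 1, 19208914 to 19238576), measured 13.4 and 14.02 TPM in *Shh*-/- and 11.99 and 6.96 TPM in WT. One WT pool was close to both *Shh*-/- pools, and the difference was 0.53 (SE 0.26, limma adjusted p = 0.277), or 0.18 without WT pool 6 and 0.89 without WT pool 4. *Tfap2a* was the lower of the pair in both WT pools (*Tfap2a* to *Tfap2b* 0.603 and 0.578) and the higher in both *Shh*-/- pools (1.47 and 1.13). For *Tfap2c*, the AP-2 factor with the lowest level of the 3, the difference was 0.67 (SE 0.25, limma adjusted p = 0.195).

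*Foxd3*, a forkhead factor that specifies the crest (chromosome 4, 99656299 to 99658622), had the lowest level of the 9 genes, with 6.63 and 6.10 TPM in *Shh*-/- and 5.88 and 3.72 TPM in WT. Its mean read depth was 4.36 and 9.49 per base in *Shh*-/- against 8.37 and 5.53 in WT. The WT pools were 0.54 apart, and the genotypes differed by 0.37 (SE 0.24, 95% interval -0.25 to 0.99, limma adjusted p = 0.378). Without WT pool 6 the difference was 0.10, and without WT pool 4 it was 0.64. Relative to *Sox10* in the same library, *Foxd3* was at 0.195 and 0.213 in *Shh*-/- and at 0.323 and 0.319 in WT.

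*Ets1*, an ETS factor that cranial crest shares with endothelium and blood cells (chromosome 9, 32636221 to 32757820), was the most abundant of the 9 genes in WT and the only one with lower values in the mutants. It measured 50.8 and 33.0 TPM in *Shh*-/- and 63.3 and 54.7 TPM in WT (difference -0.51, SE 0.23, 95% interval -1.10 to 0.08, limma adjusted p = 0.241). The *Shh*-/- pools were themselves 0.61 apart, and the difference was -0.82 without *Shh*-/- pool 1 and -0.21 without *Shh*-/- pool 2. For *Ets1*, which has 6 annotated transcripts, the deposited coverage was only 0.0718 to 0.124 of what its FPKM corresponds to in a gene with 1 transcript. The cause was not tested, and *Sox10* (4 annotated transcripts) was at 1. When coverage was scaled to each library's aligned bases the difference was -0.64 for *Ets1*. The same relative coverage of *Tfap2b* was 0.188 in the first *Shh*-/- pool and 0.621 to 0.648 in the other 3 libraries, and its difference was -0.19 by coverage (limma adjusted p = 0.819), the opposite sign of that by TPM. This comparison was chosen after the values were seen.

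*Ngfr*, the low-affinity neurotrophin receptor by which migrating crest is often sorted (chromosome 11, 95568818 to 95587735), measured 38.5 and 35.5 TPM in *Shh*-/- and 12.2 and 8.66 TPM in WT. Its *Shh*-/- pools were nearly level and far above both WT pools. The rise was 1.75 on the log2 scale (SE 0.19, 95% interval 1.25 to 2.24, limma adjusted p = 0.047), a ratio of means of 3.54 and the gene ranked 146 of 16972 by the size of the rise. With any 1 pool left out the rise was 1.52 to 1.98, and its adjusted p was 0.115 to 0.181. Over all tested genes, 3 of these 4 fits called none, and the fit without WT pool 6 called 4 higher and 12 lower.

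Of the partners and ligands of *Ngfr*, *Ntrk2* alone passed the test. *Ntrk2*, the receptor for BDNF, rose from 2.101 and 2.35 TPM in WT to 9.73 and 12.1 TPM in *Shh*-/- (1.88, SE 0.19, limma adjusted p = 0.0448). *Ntrk3*, the receptor for NTF3, overlapped between the genotypes (0.09, limma adjusted p = 0.897). *Sort1*, the coreceptor sortilin, differed by 0.46 (limma adjusted p = 0.168) and *Sorcs1*, a relative, by -0.19 (limma adjusted p = 0.637). The ratio of *Ngfr* to *Ntrk2* was 3.96 and 2.94 in *Shh*-/- and 5.82 and 3.69 in WT, which overlapped, while its ratio to *Sort1* was higher in both *Shh*-/- pools (0.978 and 1.06 against 0.427 and 0.365). Among the ligands, *Bdnf* differed by 0.31, *Ntf3* by -0.02 and *Ntf5* by 0.11, with limma adjusted p of 0.368, 0.929 and 0.723.

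*Erbb3*, the neuregulin receptor on which Schwann cell precursors depend (chromosome 10, 128567523 to 128589652), measured 31.1 and 20.5 TPM in *Shh*-/- and 16.9 and 15.8 TPM in WT. The WT pools were level, and the *Shh*-/- pools were 0.58 apart, about as far as the genotypes (0.60, SE 0.22, 95% interval 0.02 to 1.17, limma adjusted p = 0.192), and the difference was 0.31 without *Shh*-/- pool 1. *Erbb2*, the coreceptor that carries the active kinase, differed by 0.48 (SE 0.16, limma adjusted p = 0.173). The ratio of *Erbb3* to *Erbb2* was 0.914 and 0.766 in *Shh*-/- and 0.749 and 0.780 in WT, which overlapped. *Nrg1*, the neuregulin that axons present to these glia, measured 4.40 and 4.50 TPM in *Shh*-/- and 1.302 and 1.23 TPM in WT (1.27, SE 0.19, limma adjusted p = 0.0693). *Erbb4*, at 0.338 to 0.425 TPM in *Shh*-/- and 0.321 to 0.404 TPM in WT, was below the filter.

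*Ednrb*, the endothelin receptor of crest that forms pigment cells and enteric neurons (chromosome 14, 103814625 to 103844173), measured 29.9 and 35.8 TPM in *Shh*-/- and 25.2 and 26.7 TPM in WT. The genotypes did not overlap, and the difference was small, at 0.32 (SE 0.14, 95% interval -0.04 to 0.68, limma adjusted p = 0.231), or 0.20 without *Shh*-/- pool 2. *Ednra*, the endothelin receptor of arch mesenchyme, was at 28.1 and 23.7 TPM in *Shh*-/- and 30.9 and 33.9 TPM in WT (-0.32, SE 0.14, limma adjusted p = 0.242). The ratio of *Ednrb* to *Ednra* was 1.06 and 1.51 in *Shh*-/- and 0.816 and 0.786 in WT, so that *Ednrb* was the more abundant receptor in both *Shh*-/- pools and the less abundant in both WT pools. *Edn3*, the ligand through which *Ednrb* acts in crest, overlapped between the genotypes (0.05, limma adjusted p = 0.869). *Edn1*, the ligand of the arch mesenchyme receptor, measured 29.3 and 31.7 TPM against 18.2 and 12.9 TPM (0.95, SE 0.19, limma adjusted p = 0.0975). *Edn2* was listed at 0 in all 4 libraries, and the converting enzymes *Ece1* and *Ece2* differed by 0.23 and 0.13 (limma adjusted p = 0.369 and 0.555).

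**Figure D2:**
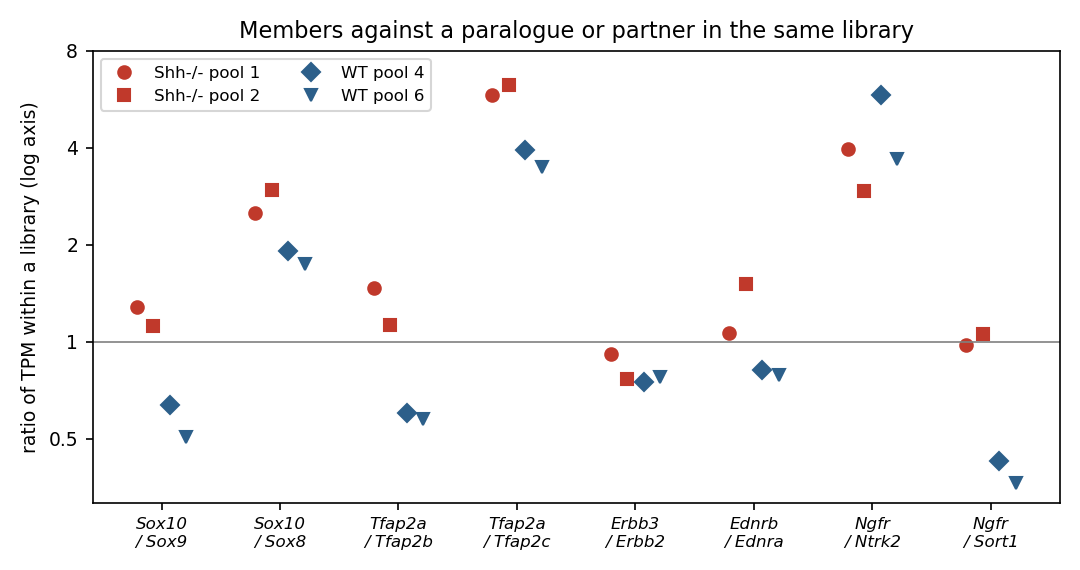
Ratio of TPM (log axis) of *Sox10*, *Tfap2a*, *Erbb3*, *Ednrb* and *Ngfr* to a related or partner gene within each library, red for *Shh*-/- and blue for WT pools, with a line at 1. *Sox10* crosses from below *Sox9* in WT (0.637 and 0.507) to above it in *Shh*-/- (1.29 and 1.12), *Tfap2a* and *Ednrb* cross their partners in the same way, and the ratio of *Erbb3* to *Erbb2* overlaps.

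In order of level, the WT means ran from *Ets1* through *Ednrb*, *Erbb3*, *Sox10*, *Ngfr*, *Tfap2b*, *Sox8* and *Tfap2a* to *Foxd3*. The *Ets1* and *Ednrb* pools were separate from each other and from the rest, whereas from *Erbb3* down each gene's WT pools overlapped those of the next. In *Shh*-/- the order was *Ets1*, *Ngfr*, *Ednrb*, *Sox10*, *Erbb3*, *Tfap2a*, *Tfap2b*, *Sox8* and *Foxd3*. *Ngfr* went from rank 5 to rank 2 and *Tfap2a* from rank 8 to rank 6. The first 4 genes of that order each overlapped the next, and *Tfap2a* was separate from both of its neighbors.

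Pools of 1 genotype also differed in these genes. In WT pool 4 (RNA integrity number 7.7), 8 of the 9 genes were higher than in WT pool 6 (RNA integrity number 9), all but *Ednrb*, against 55.5% of all tested genes. The median of the difference between these 2 pools was 0.45 for the 9 genes and 0.03 for all tested genes. In *Shh*-/- pool 1 (RNA integrity number 8), 7 of the 9 were higher than in pool 2 (RNA integrity number 7.7), all but *Tfap2b* and *Ednrb*, against 57.9% of tested genes. The part of RNA quality and of the dissection in these differences was not tested.

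The GC content of the transcripts moved with the difference between genotypes. The median difference was -0.18 for tested genes under 45% GC and 0.41 for those over 60%, and the 9 genes ranged from 44.1% (*Ednrb*) to 65.1% (*Foxd3*). With GC content and transcript length taken out of each library, the difference of *Ngfr* was 1.29 (SE 0.13, limma adjusted p = 0.0435), that of *Tfap2a* 1.25 (limma adjusted p = 0.1002) and that of *Sox10*, at 62.7% GC, 0.57 (SE 0.17, limma adjusted p = 0.19). *Foxd3* then turned to -0.15 (SE 0.18, limma adjusted p = 0.678) and *Sox8* was left at 0.13. *Ednrb* was nearly as before, at 0.35, and the median of the 9 genes was 0.35. Whether the relation to GC content arose in the libraries or in the tissue was not tested.

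**Figure D3:**
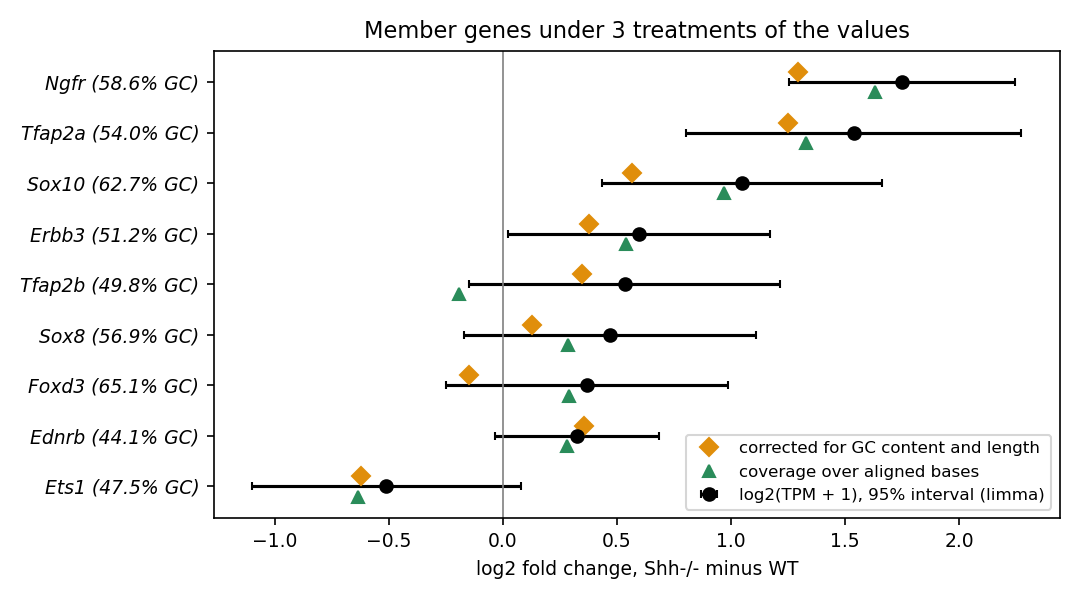
Log2 difference, *Shh*-/- minus WT, of the 9 genes on log2(TPM + 1) with the 95% interval of limma (black), with GC content and length taken out (orange), and from coverage divided by aligned bases (green), with the GC content of the transcripts beside each name. *Ngfr*, *Tfap2a* and *Sox10* stay above 0 in all 3, *Ets1* stays below, *Foxd3* turns to -0.15 with the correction and *Tfap2b* to -0.19 by coverage.

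**Figure D4:**
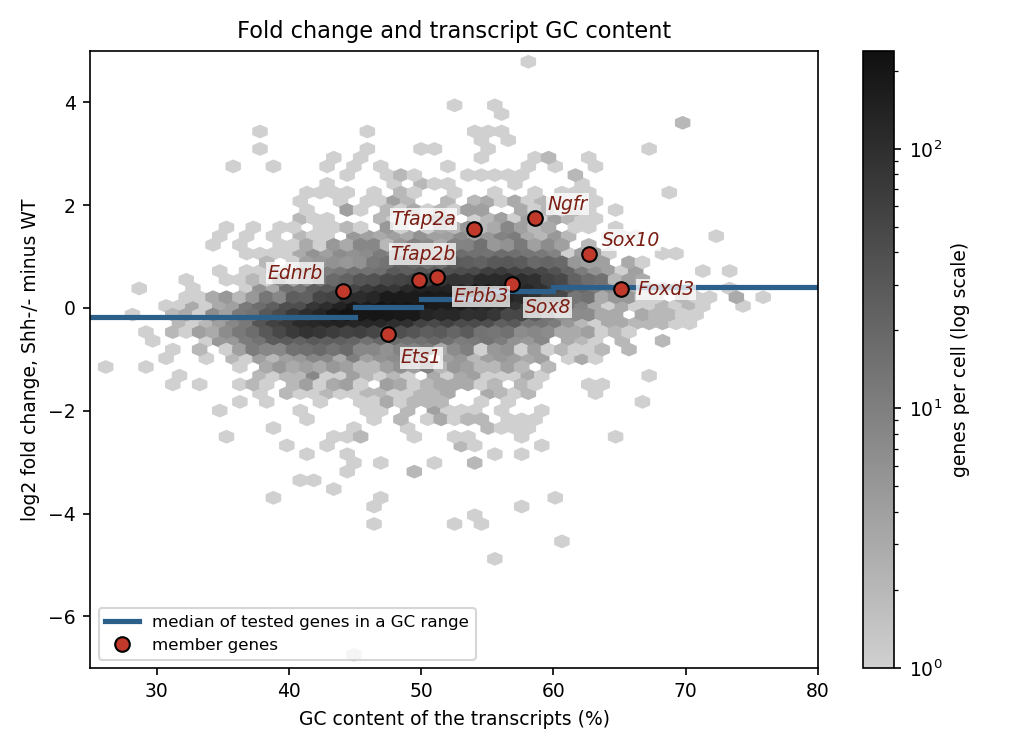
Log2 difference against the GC content of the transcripts, with all tested genes in grey (darker for more genes), their median in 5 ranges of GC content as blue lines, and the 9 genes in red. The medians climb from -0.18 under 45% GC to 0.41 over 60%. *Ngfr*, *Tfap2a* and *Sox10* lie above the line of their range and *Foxd3* lies at it.

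A further 3 lists of crest biology, which hold none of the 9 genes, were read in the same way. Of all tested genes, 0.56% were called higher and 0.165% lower at an adjusted p under 0.05 in limma. By an unadjusted p under 0.05, 17.5% were higher and 7.22% lower. Of 18 further crest specifiers and border genes 16 were tested, of which 3 rose and none fell at an adjusted p under 0.05 (8 higher and 1 lower by unadjusted p), with a median of 0.62. *Pax3* and *Zic1*, 2 of these 3, were under 1 TPM in both WT pools and passed the filter only through their *Shh*-/- values. For them a rise was the only direction that the filter allowed. *Twist1*, a basic helix-loop-helix factor of crest mesenchyme, rose from 46.1 and 43.8 TPM to 147.0 and 125.0 TPM (1.57, SE 0.12, limma adjusted p = 0.0323). *Pax3*, a border gene that also marks myoblasts, rose from 0.270 and 0.0392 TPM to 3.77 and 3.84 TPM (2.06, SE 0.23, limma adjusted p = 0.047). *Zic1*, a border gene also used in neural tube and somites, was at 4.68 and 3.84 TPM in *Shh*-/- and at 0.189 TPM in 1 WT pool and listed at 0 in the other (limma adjusted p = 0.0449). The largest difference belonged to *Msx1* (2.99, SE 0.51, limma adjusted p = 0.0784) and the lowest to *Zeb2* (-0.46, SE 0.13, limma adjusted p = 0.135).

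Of 19 Schwann precursor and glial genes, 12 were tested and none passed an adjusted p under 0.05 in limma (6 higher and 1 lower by an unadjusted p under 0.05), with a median of 0.39. Of all tested genes, 17.5% were higher and 7.22% lower by that unadjusted p. The median was 0.56 once GC content and length were taken out, the highest of the alternative settings, and the lowest was 0.24. With that correction 1 gene of the list was called, as was 1 with FPKM. The highest was *Ncam1*, an adhesion molecule shared with neurons (1.43, SE 0.21, limma adjusted p = 0.068), and the lowest *Itga4*, an integrin chain (-0.84, SE 0.24, limma adjusted p = 0.141). *Fabp7*, a marker of early crest glia chosen for naming after its values were seen, was at 22.4 and 18.0 TPM in *Shh*-/- and 7.70 and 7.21 TPM in WT (1.32, limma adjusted p = 0.0595). Of the genes of later glia, also named after their values were seen, *Gfap* was at most 0.433 TPM and *S100b* at most 0.169 TPM in any library, whereas *Mbp* and *Pmp22*, which encode myelin proteins, ranged from 5.84 to 8.40 TPM and from 24.1 to 37.4 TPM and differed by 0.15 and -0.08 (limma adjusted p = 0.675 and 0.846). Among 18 ligands and partner receptors, 16 were tested and *Ntrk2* alone passed (6 higher and 0 lower by unadjusted p), with a median of 0.18 that turned to -0.05 once GC content and length were taken out.

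**Figure D5:**
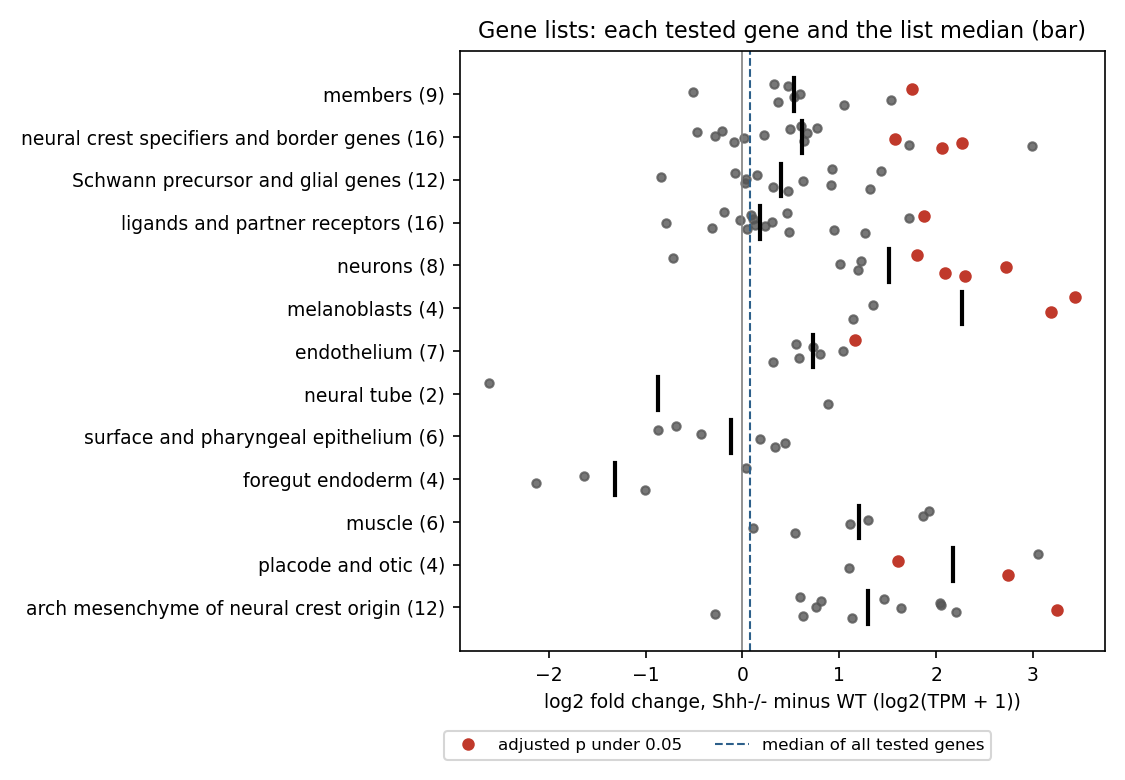
Log2 difference, *Shh*-/- minus WT, of every tested gene of each list, with a bar at the list median, red points for an adjusted p under 0.05 in limma and a dashed line at the median of all tested genes (0.08). The number of tested genes stands beside each name. The 9 crest and Schwann precursor genes have a median of 0.53, neuron genes 1.51 and foregut endoderm genes -1.32.

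Markers of other cells differed between the genotypes as well, and their part in the values of the 9 genes was not tested. The calls in these lists and in the 3 above were lost with no filter on TPM, by coverage and with any 1 pool left out. The counts below stand beside 0.56% of all tested genes called higher and 0.165% called lower. By an unadjusted p under 0.05 in limma, these shares were 17.5% and 7.22%. The 8 neuron genes summed to 442.3 and 471.5 TPM in *Shh*-/- and 192.0 and 188.7 TPM in WT, with 4 called higher (*Tubb3*, *Stmn2*, *Elavl3* and *Prph*) and *Isl1* the lowest (-0.72, limma adjusted p = 0.104). Arch mesenchyme genes of crest origin, of which 11 of 12 had a positive difference (58.3% of all tested genes did), summed to 845.6 and 653.5 TPM against 451.4 and 388.0 TPM, with *Alx4* called higher (3.25, limma adjusted p = 0.0412) and *Alx1* lowest (-0.28). *Alx4* was under 1 TPM in both WT pools and passed the filter only through its *Shh*-/- values. All 7 endothelial genes had a positive difference, from 0.31 for *Pecam1* to 1.17 for *Tie1*, the one that was called (limma adjusted p = 0.047). Of the 2 genes named above as also used in endothelium, *Ets1* had the opposite direction and *Ednrb* (0.32) the same. Epithelial keratin and adhesion genes, among which *Tfap2a* and *Erbb3* can also be transcribed, had a median of -0.12 that ranged from -0.41 to 0.18 over the alternative settings, from *Krt5* at -0.87 to *Krt8* at 0.44, and none passed in limma (1 higher and 1 lower by an unadjusted p under 0.05). *Krt14* was at 0 in 3 libraries. In the neural tube list, *Sox1*, *Olig2* and *Dbx1* were at most 0.0593 TPM in every library.

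Genes that overlap or neighbor the 9 were read beside them. Within 10 kb the tables list 16 genes around 7 of the 9, and 6 of the 16 passed the filter. Beside *Sox10*, *Polr2f* on the opposite strand differed by 0.10, and beside *Erbb3*, *Pa2g4* differed by 0.11 and the miRNA entry *AC117232.1* by 0.81 (limma adjusted p = 0.582, 0.517 and 0.264). Beside *Sox8*, *Lmf1* differed by 0.43 and the antisense gene *2810468N07Rik*, 125 bases away, by -0.10 (limma adjusted p = 0.21 and 0.791). The lincRNA *Gm12688*, 1316 bases before *Foxd3* on the opposite strand (chromosome 4, 99653607 to 99654983), measured 6.001 and 7.21 TPM in *Shh*-/- and 17.0 and 13.9 TPM in WT, a difference of -1.11 (SE 0.18, limma adjusted p = 0.0749) with no overlap and the opposite sign from *Foxd3*. The antisense gene *Gm26688*, which overlaps *Tfap2a*, was below the filter at 1.36 and 1.37 TPM in *Shh*-/- and 0.336 and 0.280 TPM in WT. The libraries were directional, but whether strand was used in assigning reads is not given in the sources used here. The other 9 genes (*Gm10863*, *Gm12682*, *Gm23366*, *Gm9979*, *Gm37823*, *Gm28340*, *Mir6917*, *Gm27163* and *Gm27240*) were at most 1.07 TPM.

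The tested genes whose profile over the 4 libraries was nearest to that of *Sox10* were *Ror2*, *Ctu2*, *Dysf*, *8430422M14Rik* and *Kirrel3*, with a root mean square distance of 0.0382 to 0.0612 between values centred on each gene's own mean on the log2(TPM + 1) scale. *Ror2*, a Wnt receptor, measured 30.9 and 24.7 TPM in *Shh*-/- and 16.8 and 10.1 TPM in WT. Among the other 8 genes *Tfap2a* was nearest to *Sox10* (0.25) and *Ets1* farthest (0.802). These distances describe 4 libraries of 2 genotypes and say nothing of shared control.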

How the data were processed

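Directional libraries of poly(A) RNA were sequenced as single-end reads by the authors, whose processing notes name mm10, HISAT2 (2.1.0) and StringTie (1.3.6). The deposited tables give TPM, FPKM and a per-gene coverage (mean read depth, not normalized between libraries); an annotation version is not given in the sources used here. Rows of a gene ID were summed and log2(TPM + 1) was tested with limma 3.58.1 in R 4.3.3 (eBayes with trend, no covariates) over the 16972 genes with a mean of at least 1 TPM, with Benjamini-Hochberg adjustment at 0.05. Length is the mean over a gene's GENCODE M21 transcripts, and GC content is the share of G and C over all their bases together. To this annotation 46488 gene IDs matched. The correction used natural splines with 5 degrees of freedom for GC content and for length, over 16887 genes. Members, lists and tests were chosen with earlier results of these data known. Named genes are the 9 members, the ligands and partner receptors, the called, highest and lowest genes of each other list, genes within 10 kb, and the 5 nearest to *Sox10*; exceptions are marked, and some genes of the lists are not reported here. The fit was tested on simulated data. Alternatives were another pseudocount (0.1), 2 filters, 2 scalings, FPKM, eBayes without trend, the correction, an adjusted p of 0.10 and each pool left out; coverage over aligned bases and protein-coding genes alone were chosen after the data were seen.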

Additional observations from a re-analysis of the deposited data

How the results depend on the processing

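Over 14 alternatives, the differences of *Sox10*, *Tfap2a*, *Erbb3*, *Sox8*, *Ednrb* and *Ngfr* stayed positive and that of *Ets1* negative, whereas *Foxd3* turned to -0.15 with the GC and length correction and *Tfap2b* to -0.19 by coverage over aligned bases. The 2 filters and eBayes without trend leave the differences as they were. Another pseudocount or a pool left out could not turn any sign, since the pools of these 9 genes did not overlap. The number of the 9 genes called higher, 1 in the test as reported, was 0 with a pseudocount of 0.1 (*Ngfr*, adjusted p = 0.0539), with no filter on TPM (0.148, more genes tested), with eBayes without trend (0.06) and by coverage (0.0582), 2 at an adjusted p under 0.10, and 0 with any 1 pool left out. Over all tested genes, 95 higher and 28 lower calls became 670 and 188 at an adjusted p under 0.10, and none with no filter, by coverage and in 3 of the 4 fits with 1 pool left out (4 and 12 without WT pool 6), so the loss of the *Ngfr* call in those fits is not particular to it. Over these alternatives the adjusted p of *Ngfr* ranged from 0.0355 to 0.181. Their median difference moved from 0.53 to 0.35 with the GC and length correction and to 0.29 by coverage, and ranged from 0.36 to 0.70 with 1 pool left out. The genes with both *Shh*-/- pools on top numbered 8 as reported (38% of all tested genes), 4 after quantile normalization (30%), 5 after median centring (27.3%) and 5 after the GC and length correction (25.9%). With any 1 pool left out the number could only stay at 8, since removing a pool cannot undo this order. In the other lists, every call was lost with no filter, by coverage and with any 1 pool left out. The 4 neuron calls became 2 with a pseudocount of 0.1 and 1 without trend, and the 3 specifier calls became 1 with a pseudocount of 0.1, a minimum of 5 TPM or the correction. The ligand and partner list had 0 calls with a minimum of 5 TPM, quantile normalization or the correction, the endothelial list 0 with a pseudocount of 0.1, either scaling, no trend or the correction, and the arch mesenchyme list 0 with a pseudocount of 0.1, where, as with a minimum of 5 TPM, the 2 melanoblast calls became 1. Some settings gave more calls. The Schwann precursor and glial list, with none as reported, had 1 with FPKM and 1 with the correction, which moved its median from 0.39 to 0.56. The neuron list had 5 calls with FPKM or protein-coding genes alone. The ligand and partner list had 2 without trend, and the arch mesenchyme list 2 with protein-coding genes alone. Where not named, the cause was not tested. A lone pool left in a group was assumed to vary like the others. No paired analysis was possible because the labels give the pools of the 2 genotypes no shared numbers. The small number of pools, 2 a group, and the smaller depth of *Shh*-/- pool 1 limit what could be detected.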

Other observations

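Pigment cells are another derivative of the crest, and 4 of 6 melanoblast genes passed the filter, all with both *Shh*-/- pools above both WT pools. Of all tested genes 38% showed that order. *Pmel* and *Dct*, under 1 TPM in both WT pools, passed the filter only through their *Shh*-/- values. For them a rise was the only direction that the filter allowed. *Pmel*, a melanosome matrix protein, rose from 0.359 and 0.777 TPM in WT to 19.0 and 13.2 TPM in *Shh*-/- (3.44, SE 0.26, limma adjusted p = 0.0323). *Dct*, an enzyme of melanin synthesis, was at 10.6 and 7.75 TPM in *Shh*-/- and at 0.223 TPM in 1 WT pool and listed at 0 in the other (limma adjusted p = 0.0323). *Mitf* had the smallest difference of the 4 (1.14, SE 0.20, limma adjusted p = 0.0788). *Tyr* was at 0.859 and 0.760 TPM in *Shh*-/- and listed at 0 in WT, and *Tyrp1* was listed at 0 in all 4 libraries. *Sox10* and *Ednrb*, which are kept in melanoblasts, had differences of 1.05 and 0.32.

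Of 5 placode and otic genes 4 were tested, and those 4 had both *Shh*-/- pools above both WT pools, as did 38% of all tested genes. *Pax8*, at 1.43 TPM in WT pool 4 and listed at 0 in WT pool 6, passed the filter only through its *Shh*-/- values. *Eya2* rose from 7.47 and 6.70 TPM to 26.1 and 21.4 TPM (1.61, SE 0.17, limma adjusted p = 0.0449). *Pax8* had the largest difference (3.05, SE 0.48, limma adjusted p = 0.0719) and *Eya1* the smallest (1.10, SE 0.17, limma adjusted p = 0.0709). Muscle genes had a median of 1.21, from *Myog* (0.11) to *Tnnt2* (1.93), and none was called in limma, with 4 of 6 higher at an unadjusted p under 0.05. Foregut endoderm genes had a median of -1.32, from *Foxa2* (-2.13, limma adjusted p = 0.0602) to *Sox2* (0.04), with none called and 3 of 4 lower at an unadjusted p under 0.05. Of the neural tube genes, *Nkx6-1* was lowest (-2.62, limma adjusted p = 0.118) and *Pax6* highest (0.88, limma adjusted p = 0.123), and neither was called, although both had an unadjusted p under 0.05. *Nkx6-1* passed the filter only through its WT values and *Pax6* only through its *Shh*-/- values.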
